A study of Mus musculus with 24 samples.

Results

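The genes described here pattern the midbrain-hindbrain boundary of the embryonic brain. They are 10 of the 23119 genes in the deposited expression table: the secreted ligand Wnt1 and the transcription factors En1, En2, Pax2, Pax5, Pax8, Otx2, Gbx2, Lmx1b and Tal2. Each member is the table entry whose gene symbol matches, over 24 RNA-seq libraries. The set was chosen by a measured value, since En1, Wnt1 and Tal2 were higher in SmcHD1-mutant (KO) than in wild-type (WT) cells at day 7 of differentiation. The day 7 difference is therefore given as a description with no test, and tests are confined to the other stages. All cells came from JB4/EI7HZ2, female F1-hybrid mouse embryonic stem cells (mESCs) with a JF1 mother and a B6 father, which carry a zeocin resistance gene on the JF1 X chromosome and a G418 resistance gene on the B6 X chromosome. KO cells were derived from them with CRISPR-Cas9 and carried small deletions on both Smchd1 alleles that bring premature stop codons. WT and KO cells were sampled as mESCs in serum medium with 2i and LIF, as day 7 and day 9 aggregates directed to neurectoderm, and as neural stem cells (NSCs) derived by a separate protocol and kept in FGF2 and EGF, with 3 replicates in each of the 8 groups. Since each genotype is 1 cell line, the mutation cannot be told apart from other ways in which these lines differ.

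In the embryo, Otx2 marks the future forebrain and midbrain and Gbx2 the anterior hindbrain, and the border between their domains becomes the isthmic organizer. Cells at this border express Wnt1 on the midbrain side and Fgf8 on the hindbrain side, and Pax2, Pax5, Lmx1b and the Engrailed genes maintain this pair of signals. Tal2 is a basic helix-loop-helix factor required for GABAergic neurons of the midbrain, and Pax8 is a relative of Pax2 and Pax5.

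Expression values were FPKM, read fragments scaled to transcript length and library size, and a difference is given on the scale log2(FPKM + 1), which understates the change of low genes. FPKM sums ran from 504660 to 802938 and relative read numbers, worked out from the smallest steps of low values, from 0.809 to 1.15 of the median library. Smchd1 was 13.0 to 26.4 FPKM in the 12 WT libraries and 1.82 to 4.40 in the 12 KO libraries. The summed level of 7 pluripotency markers was 2510 to 3030 FPKM in mESCs, 280 to 438 at day 7, 60.5 to 122 at day 9 and 6.54 to 12.6 in NSCs. The summed level of 8 neural markers was 402 to 476 FPKM in mESCs, 423 to 523 at day 7, 1450 to 2020 at day 9 and 3860 to 6930 in NSCs. Whole cultures were measured, so fewer cells of a type and less RNA per cell cannot be told apart. Of the 10 members, 8 had a mean of at least 1 FPKM over the 24 libraries and were tested among 12105 genes. Lmx1b, at 1.34 FPKM, lay just inside that limit, and Pax8 (0.827) and Pax5 (0.647) lay outside it. With the day 7 libraries left out all 8 still passed, but with KO day 9 cells left out as well Wnt1, Tal2, Pax2 and Lmx1b did not, and Lmx1b did not with KO day 9 cells alone left out. Counts over the tested members, and the tests of these 4 genes, are therefore descriptions, while En1, En2, Otx2 and Gbx2 passed either way.

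The 250 bases before the transcription start are shown for the 3 genes on which the set was chosen and for Gbx2, which was called higher in KO cells at day 9 and lower in KO NSCs. The sequences are those of NCBI RefSeq, each matched once, exactly, to its chromosome in mm9, the build of the deposited table. Capitals mark TATAAA, the TATA box, which was the 1 searched motif found in them.
En1, plus strand, chr1:122498814-122499063: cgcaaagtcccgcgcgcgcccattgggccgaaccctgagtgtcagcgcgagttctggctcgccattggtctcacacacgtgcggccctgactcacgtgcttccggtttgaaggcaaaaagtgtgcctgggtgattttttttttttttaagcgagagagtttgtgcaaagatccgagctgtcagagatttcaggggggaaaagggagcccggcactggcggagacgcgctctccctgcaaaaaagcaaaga
Wnt1, plus strand, chr15:98620038-98620287: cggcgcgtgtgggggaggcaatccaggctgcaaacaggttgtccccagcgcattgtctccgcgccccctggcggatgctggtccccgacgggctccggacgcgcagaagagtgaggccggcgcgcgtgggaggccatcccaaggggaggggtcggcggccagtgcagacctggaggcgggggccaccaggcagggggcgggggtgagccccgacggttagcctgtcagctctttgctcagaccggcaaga
Tal2, plus strand, chr4:53792323-53792572: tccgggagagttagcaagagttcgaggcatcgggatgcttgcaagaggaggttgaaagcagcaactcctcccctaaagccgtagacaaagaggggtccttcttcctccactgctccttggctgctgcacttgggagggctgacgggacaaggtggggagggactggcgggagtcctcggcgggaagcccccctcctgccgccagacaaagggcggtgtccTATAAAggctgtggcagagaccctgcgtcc
Gbx2, minus strand, chr1:91827752-91828001: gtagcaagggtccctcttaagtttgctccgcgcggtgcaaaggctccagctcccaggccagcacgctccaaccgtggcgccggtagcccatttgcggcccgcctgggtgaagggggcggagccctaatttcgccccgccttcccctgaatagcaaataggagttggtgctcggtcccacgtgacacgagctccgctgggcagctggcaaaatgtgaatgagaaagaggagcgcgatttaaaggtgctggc

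These windows end at the start of the deposited locus for En1, Wnt1 and Gbx2, and 4 bases before it for Tal2. The motifs searched on both strands were TAATCC, bound by OTX factors, CTTTGA, the core of LEF/TCF sites, TAATTA, a homeodomain core that shares its first letters TAAT with TAATCC, and TATAAA. Among 32536 different upstream windows of this length, 6.25% held TAATCC, 13.9% CTTTGA, 4.84% TAATTA and 12.3% TATAAA. The TATAAA of Tal2 begins 30 bases before the start, and the other 3 windows held none of these letters. Their GC content was 56% for En1, 71.6% for Wnt1, 61.6% for Tal2 and 61.6% for Gbx2, against a median of 52.4% over all windows. A match or its absence describes only these windows.

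The deposited mm9 loci of the other members are En2 at chr5:28492236-28498706, Pax2 at chr19:44831884-44912359, Pax5 at chr4:44544378-44723312, Pax8 at chr2:24276080-24331086, Otx2 at chr14:49277859-49282547 and Lmx1b at chr2:33420056-33496031. The Pax2 entry overlaps that of 1700039E22Rik, so reads there could have been counted for either. Members of 1 family shared short runs only, compared with 80-base reads. The longest run shared by En1 and En2 transcripts was 17 coding bases, TTCATCGATAACATCCT. That shared by Pax2 and Pax8 was 27 coding bases, and those of Pax5 with Pax2 and with Pax8 were 17 bases each.

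At day 7, the stage on which the set was chosen, KO cells had higher levels of the ligand gene and of 4 transcription factors in every library. Wnt1 was 11.7, 4.12 and 18.8 FPKM in KO replicates 1, 2 and 3 and 0.647, 0.187 and 0.296 FPKM in the WT replicates. Counted in the gene's steps, these values correspond to about 153, 43 and 197 reads in KO and 8, 2 and 3 reads in WT cells, with the median library taken as reference. The lowest KO library thus held more Wnt1 than the highest WT library, and KO replicate 2 lay well below the other two.

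En1, an Engrailed homeodomain factor, was 17.8, 5.21 and 21.8 FPKM in KO and 1.04, 0.0862 and 0.364 FPKM in WT day 7 cells. KO replicate 2 was again the lowest, and WT replicate 2 was the lowest WT library. Tal2 was 26.2, 18.1 and 17.4 FPKM in KO and 2.98, 0.646 and 2.27 FPKM in WT cells. Here KO replicate 1 stood above the others and replicate 2 did not stand apart. The log2 differences were 3.26 for En1, 3.00 for Wnt1 and 2.93 for Tal2. Leaving out each library in turn they ran from 2.90 to 3.84 for En1, from 2.56 to 3.54 for Wnt1 and from 2.56 to 3.19 for Tal2.

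Otx2, the forebrain and midbrain determinant, was 67.6, 41.7 and 55.5 FPKM in KO and 12.3, 15.4 and 17.1 FPKM in WT day 7 cells. Its KO level was the highest that any member reached in any group. Pax2, an early paired-box factor of the boundary, was 5.46, 2.80 and 4.99 FPKM in KO and 0.931, 1.00 and 0.606 FPKM in WT cells. The log2 differences were 1.79 for Otx2 and 1.52 for Pax2, and for both the lowest KO library lay above the highest WT library.

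Gbx2, Lmx1b, En2 and Pax5 overlapped between the genotypes at day 7. Gbx2, the hindbrain counterpart of Otx2, was 27.8 to 32.3 FPKM in KO and 21.5 to 38.0 FPKM in WT cells, a log2 difference of 0.14. Lmx1b, a LIM homeodomain factor that maintains Wnt1, differed by 0.82 and En2 by 0.63 on the log2 scale. Pax5 was 1.65 to 3.30 FPKM in KO and 0.638 to 2.27 FPKM in WT cells. Pax8 was the 1 member with a lower KO mean, at 0.690 against 1.83 FPKM, and its ranges of 0.285 to 1.25 and 1.28 to 2.12 FPKM did not overlap. In all, 9 of the 10 members lay above 0, with a median log2 difference of 1.17 against 0.00 for all tested genes. KO libraries lay above all WT libraries for 5 members, and 11.6% of all tested genes did so. Because the members were chosen here, nothing is read from these counts.

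**Figure D1:**
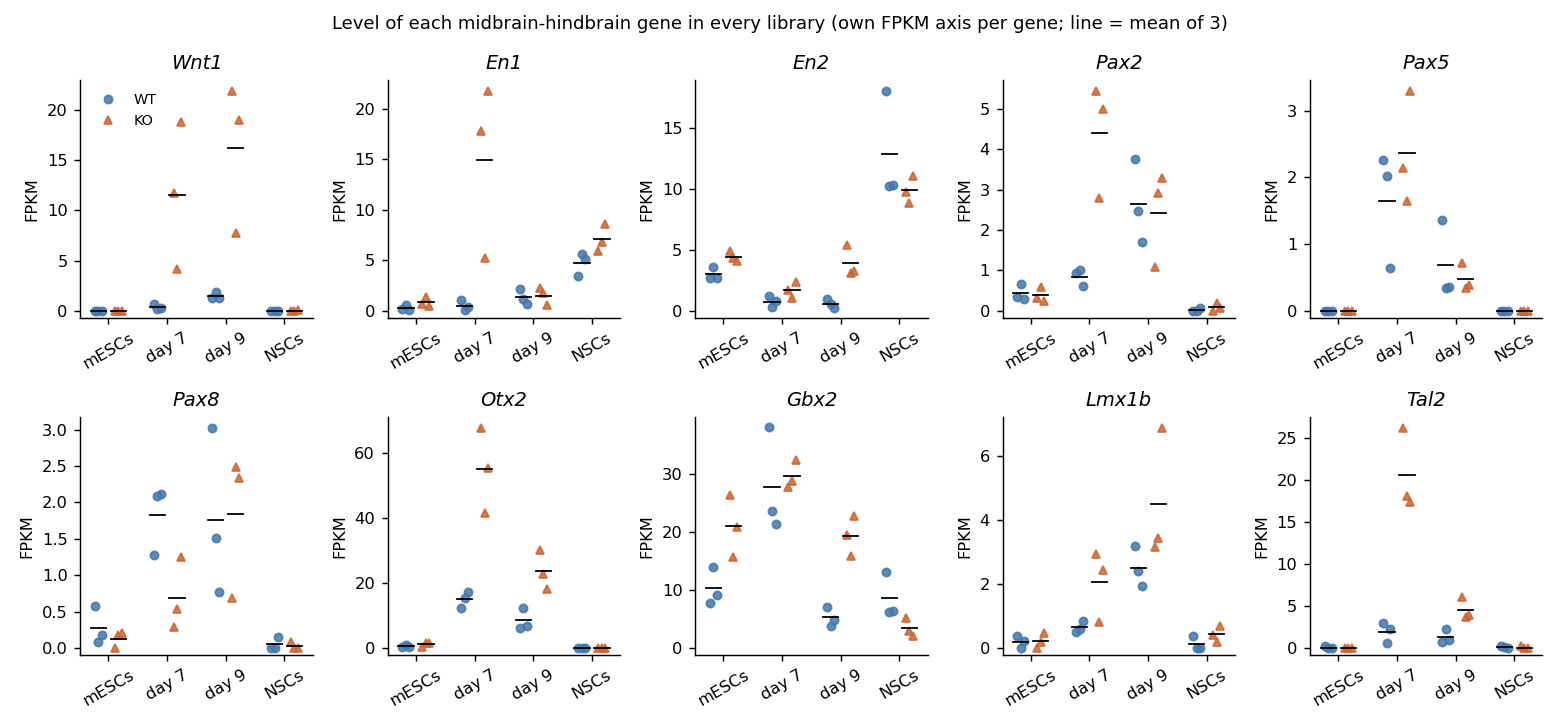
FPKM of the 10 genes in every library of WT (circles) and KO (triangles) cells, by stage, with the mean of 3 libraries as a line and a separate axis for each gene. KO day 7 libraries lie above WT libraries for Wnt1, En1, Tal2, Otx2 and Pax2, while Wnt1 and Otx2 are at or near 0 in mESCs or NSCs and En2 is highest in NSCs.

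At day 9, which the rule did not use, 5 members were called higher in KO cells and none lower (limma, Benjamini-Hochberg adjusted p under 0.05). Of all tested genes, 2.58% were called higher and 4.11% lower. Each of the 5 had its lowest KO library above its highest WT library. The share of all tested genes that did so at day 9 was not counted, so nothing is read from this. The 10 members had a median log2 difference of 0.95, against 0.00 for all tested genes.

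Wnt1 showed the greatest difference among the members at day 9. It was 21.9, 7.77 and 19.0 FPKM in KO and 1.26, 1.86 and 1.24 FPKM in WT cells, or about 265, 96 and 212 reads against 16, 23 and 15. KO replicate 2 was the lowest KO library, as at day 7, and it was still above every WT library. The log2 difference was 2.71 (SE 0.34, limma adjusted p 1.45e-05), a description because Wnt1 reached the limit on low values through day 7 and KO day 9 cells.

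Both determinants of the boundary rose in KO day 9 cells. Otx2 was 30.1, 22.8 and 18.3 FPKM in KO and 6.19, 12.4 and 6.92 FPKM in WT cells, a log2 difference of 1.41 (SE 0.27, limma adjusted p 0.0014). Gbx2 was 19.5, 15.8 and 22.7 FPKM in KO and 7.12, 3.83 and 4.92 FPKM in WT cells, a log2 difference of 1.71 (SE 0.29, limma adjusted p 0.000494). Gbx2 thus differed between the genotypes at day 9 with no overlap, although its day 7 ranges overlapped. In WT cells it had a mean of 27.7 FPKM at day 7 and 5.29 FPKM at day 9, and in KO cells 29.6 and 19.3 FPKM.

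The Engrailed genes did not move together. En2 was 5.44, 3.11 and 3.26 FPKM in KO and 0.976, 0.526 and 0.268 FPKM in WT day 9 cells, a log2 difference of 1.63 (SE 0.24, limma adjusted p 8.49e-05). En1 was 2.21, 1.72 and 0.578 FPKM in KO and 2.19, 1.12 and 0.683 FPKM in WT cells. The En1 ranges overlapped almost completely, and the log2 difference was 0.09 with a 95% interval from -0.70 to 0.88 (limma adjusted p 0.961). Between day 7 and day 9 the mean En1 level in KO cells thus went from 14.9 to 1.503 FPKM, while Wnt1 went from 11.6 to 16.2 FPKM.

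Tal2 was 6.10, 3.73 and 3.92 FPKM in KO and 0.728, 2.23 and 0.948 FPKM in WT day 9 cells, a log2 difference of 1.31 (SE 0.27, limma adjusted p 0.00277), and a description for the same reason as for Wnt1. The KO libraries remained above the WT libraries at levels well below those of day 7, where the KO mean was 20.6 FPKM. The call for Tal2, and that for Otx2, did not hold with a pseudocount of 0.1 in place of 1, which gave adjusted p-values of 0.083 and 0.101.

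The remaining members were not called at day 9. Pax2 was 1.08 to 3.30 FPKM in KO and 1.71 to 3.76 FPKM in WT cells, a log2 difference of -0.12 with a 95% interval from -0.63 to 0.39 (limma adjusted p 0.892). Lmx1b was 3.18 to 6.88 FPKM in KO and 1.93 to 3.20 FPKM in WT cells, a log2 difference of 0.60 with an interval from 0.04 to 1.16 (limma adjusted p 0.238). Pax5 was 0.349 to 0.714 FPKM in KO and 0.349 to 1.36 FPKM in WT cells, and Pax8 0.695 to 2.49 and 0.768 to 3.02 FPKM. For these untested 2 genes an exact two-sided permutation test of the means gave p-values of 0.9 and 1, where 0.1 is the smallest that 3 against 3 libraries allow.

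**Figure D2:**
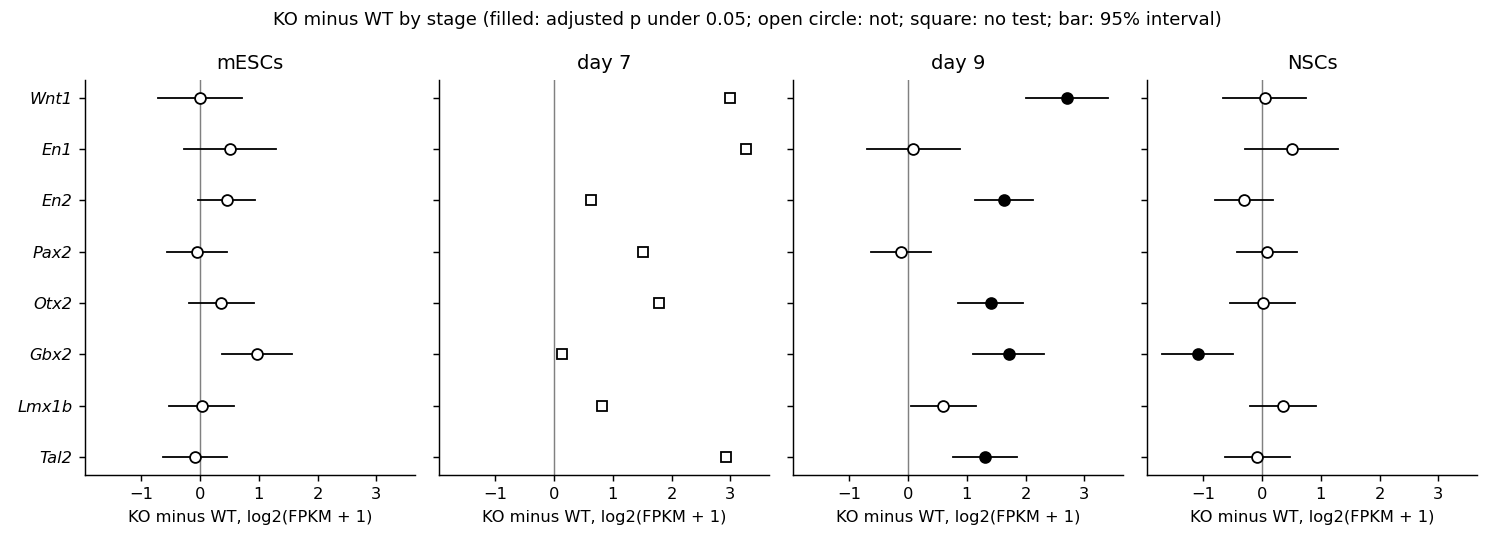
Difference of KO minus WT on the log2(FPKM + 1) scale for the 8 tested members in each stage, with the 95% interval as a bar. Filled circles have a limma adjusted p under 0.05, open circles do not, and day 7 squares carry no test because the genes were chosen there. Wnt1, Gbx2, En2, Otx2 and Tal2 are filled at day 9, no member is in mESCs, and Gbx2, below 0, is in NSCs.

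Markers of other cell types moved with genotype at the same stages. The summed level of 7 mesoderm markers was 65.9 to 161 FPKM in WT and 5.09 to 7.40 FPKM in KO day 7 cells, and 18.7 to 45.7 against 7.70 to 17.5 FPKM at day 9. That of 7 endoderm markers was 61.0 to 152 against 1.18 to 4.58 FPKM at day 7 and 28.2 to 54.0 against 4.70 to 14.6 FPKM at day 9. Of the mesoderm list, 6 of 7 genes had a mean of at least 1 FPKM in WT and 3 of 7 in KO day 7 cells, and 5 and 4 at day 9. Of the endoderm list, 5 and 1 did so at day 7 and 3 and 2 at day 9. At day 9, T and Meox1 of the mesoderm list and Foxa2 of the endoderm list were called lower in KO cells. Meox1, a somite gene, had means of 0.588 FPKM in KO and 7.11 FPKM in WT day 9 cells, and Foxa2, which the floor plate of the neural tube also expresses, 5.23 and 36.9 FPKM. Foxa2 made up most of the day 9 endoderm sum, and some genes of these lists had the higher mean in KO cells, among them Cer1 of the endoderm list (2.79 against 1.67 FPKM) and Eomes of the mesoderm list (1.99 against 1.21 FPKM). The 8 neural markers summed to 1780 to 2020 FPKM in KO and 1450 to 1790 FPKM in WT day 9 cells, where Sox1 and Pax6 were called higher and Olig2 lower in KO cells (limma adjusted p-values 0.0197, 0.0368 and 0.0127). The part of these cells in the differences of the 10 genes was not tested. Members also serve in other tissues: Pax2 and Pax8 in kidney and ear, Pax5 in B cells. The summed level of 7 ear markers was 8.94 to 10.7 FPKM in WT and 14.9 to 18.6 FPKM in KO day 7 cells, without overlap, and 8.58 to 14.5 against 6.70 to 8.75 FPKM at day 9. Of these, Oc90 was at or below 0.260 FPKM in every day 7 and day 9 library. The summed level of 7 kidney markers was 31.8 to 34.0 FPKM in WT and 26.2 to 34.9 FPKM in KO day 7 cells, and 35.0 to 41.2 against 22.7 to 29.5 FPKM at day 9. Most of it came from Sall1, at 17.2 to 30.1 FPKM in these libraries, while Hoxd11 was at or below 0.221 FPKM. Of the B cell genes, Ebf1, which neurons also express, had means of 17.2 FPKM in WT and 8.60 FPKM in KO day 9 cells, Cd79a had 0.309 and 0.371 FPKM, and Blk was listed at 0. The part of ear, kidney and B cells in these results was not tested. Neural crest markers, 6 in all, summed to 8.55 to 13.5 FPKM in WT and 8.19 to 12.5 FPKM in KO day 9 cells, but 1 of its 5 tested genes was called higher and 1 lower. Tfap2a had means of 4.23 FPKM in KO and 0.425 FPKM in WT cells (limma adjusted p 3.00e-06), and Ets1 3.25 and 6.59 FPKM (adjusted p 0.0372).

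**Figure D3:**
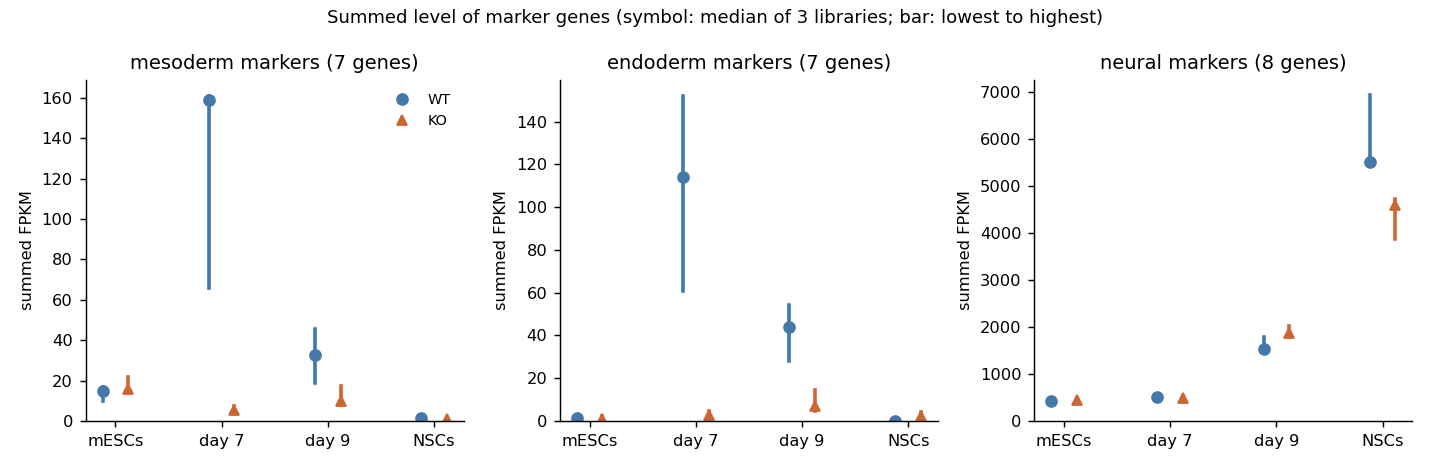
Summed FPKM of mesoderm, endoderm and neural marker genes by stage in WT (circles) and KO (triangles) cells, with the median of 3 libraries as a symbol and the lowest to highest library as a bar. Mesoderm and endoderm sums are higher in WT than in KO cells at day 7 and day 9, while neural sums overlap at day 7.

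In mESCs, no member was called between KO and WT cells, where 0.116% of tested genes were called higher and 0.413% lower. Before adjustment the smallest limma p among the 8 tested members was that of Gbx2, at 0.00308. Gbx2, which naive pluripotent cells also express, was 26.4, 15.7 and 20.9 FPKM in KO and 7.78, 13.9 and 9.15 FPKM in WT mESCs. The libraries did not overlap, and the log2 difference was 0.97 with a 95% interval from 0.37 to 1.57 (limma adjusted p 0.21). En2 was 4.10 to 4.92 FPKM in KO and 2.70 to 3.56 FPKM in WT mESCs, a log2 difference of 0.45 (limma adjusted p 0.72). Wnt1 and Pax5 were listed at 0 in all 6 mESC libraries, and Tal2 in 5 of them. En1, Pax2, Pax8 and Lmx1b stayed at or below 1.40 FPKM, and Otx2 at or below 1.70 FPKM.

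In NSCs, Gbx2 was called lower in KO cells and no other member was called, where 3.48% of tested genes were called lower and 2.54% higher. It was 5.11, 3.02 and 2.14 FPKM in KO and 13.1, 6.22 and 6.43 FPKM in WT NSCs, a log2 difference of -1.10 (SE 0.29, limma adjusted p 0.0256). Its direction was thus opposite to that at day 9. The summed neural markers were lower in KO (3860 to 4720 FPKM) than in WT NSCs (5460 to 6930 FPKM), and those of endoderm higher (1.59 to 4.00 against 0 to 0.176 FPKM). Most of the neural sum came from Fabp7 and Vim, 2 of its 8 genes were called lower, and Olig2 had means of 361 FPKM in KO and 338 FPKM in WT NSCs. Most of the endoderm sum came from Foxa2 and Gata4, with means of 1.48 and 1.09 FPKM in KO NSCs. None of the 3 tested endoderm genes was called in NSCs. The part of these cells in this result was not tested. The call was lost in a fit of the NSC libraries alone (adjusted p 0.282), and without WT replicate 1 (0.0905), KO replicate 2 (0.0859) or KO replicate 3 (0.158).

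The Engrailed genes were the other members with a clear level in NSCs. En1 was 5.87, 6.76 and 8.60 FPKM in KO and 3.47, 5.62 and 5.11 FPKM in WT NSCs. The libraries did not overlap, but the log2 difference of 0.50 had a 95% interval from -0.29 to 1.29 (limma adjusted p 0.558). En2 was 8.87 to 11.1 FPKM in KO and 10.2 to 18.1 FPKM in WT NSCs, a log2 difference of -0.31 with an interval from -0.80 to 0.19 (limma adjusted p 0.568). Otx2, Wnt1, Pax2, Pax8 and Tal2 were at or below 0.222 FPKM in every NSC library, Lmx1b was at or below 0.704 FPKM, and Pax5 was listed at 0.

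Day 9 cells and mESCs were then compared within each genotype. The comparisons between stages and the differences of KO effects share the day 9 libraries with the comparison above. In WT cells 7 members were called, where 71.5% of tested genes were, so the count itself is no result about the members. Otx2 rose from 0.624 to 8.52 FPKM (log2 difference 2.52, limma adjusted p 2.51e-08), Lmx1b from 0.195 to 2.52 FPKM (1.55, adjusted p 2.43e-05) and Pax2 from 0.431 to 2.65 FPKM (1.32, adjusted p 5.86e-05). Wnt1 and Tal2 were also called higher in WT day 9 cells (limma adjusted p-values 0.00197 and 0.00124). En2 and Gbx2 went the other way. En2 fell from 3.00 to 0.590 FPKM (log2 difference -1.35, limma adjusted p 3.13e-05), and Gbx2 from 10.3 to 5.29 FPKM (-0.84, adjusted p 0.0136). The Gbx2 call was lost with every library scaled to the same FPKM sum (adjusted p 0.122), and without WT mESC replicate 2 (0.0843) or WT day 9 replicate 2 (0.072). En1 had a log2 difference of 0.83 (limma adjusted p 0.0571) and was called under 6 of 12 alternatives, with adjusted p-values from 0.0101 to 0.0446 there.

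In KO cells 5 members were called between day 9 and mESCs, all higher at day 9, where 71.3% of tested genes were called. Otx2 rose from 1.16 to 23.7 FPKM (log2 difference 3.56, limma adjusted p 9.92e-11), Lmx1b from 0.222 to 4.503 FPKM (2.13, adjusted p 3.52e-07) and Pax2 from 0.379 to 2.43 FPKM (1.25, adjusted p 0.000103). Wnt1 and Tal2, both listed at 0 in every KO mESC library, reached 16.2 and 4.58 FPKM (limma adjusted p-values 8.82e-10 and 3.50e-08). Of these 5, the tests of Wnt1, Tal2, Lmx1b and Pax2 are descriptions, since KO day 9 cells helped these genes over the limit on low values. En2 had means of 4.44 and 3.93 FPKM in KO mESCs and day 9 cells, a log2 difference of -0.17 with a 95% interval from -0.66 to 0.32 (limma adjusted p 0.533). Gbx2 had means of 21.0 and 19.3 FPKM, a log2 difference of -0.10 with an interval from -0.70 to 0.50 (limma adjusted p 0.773). Scaling to the same FPKM sum moved the median of all genes by 0.24 in this comparison and turned both values just above 0.

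The KO effect at day 9 was set against that in mESCs as a difference of differences, which called 2 members where 2.68% of tested genes were called. For Wnt1 the KO effect was greater at day 9 by 2.71 on the log2 scale (SE 0.48, limma adjusted p 0.00183), with all 6 mESC libraries at 0, so that this value is the day 9 difference itself. Both genes entered the tests through the groups where they were high, and these values add no support to the day 9 differences. For Tal2 it was greater by 1.40 (SE 0.37, limma adjusted p 0.0474), a call lost in 11 of the 12 fits that left out 1 library, where the adjusted p reached 0.163, as well as with same-sum scaling (0.0728). En2 was not called, at 1.18 (limma adjusted p 0.0681), but was with the replicate number as a block (adjusted p 0.017), in a fit of the compared groups alone (0.0482) and without WT day 9 replicate 1 (0.0356).

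NSCs had clear levels of the Engrailed genes and Gbx2 and little of the other members. Between WT NSCs and WT day 9 cells 7 members were called, where 55.1% of tested genes were. En2 rose from 0.590 to 12.9 FPKM (log2 difference 3.10, limma adjusted p 2.87e-10) and En1 from 1.33 to 4.73 FPKM (1.33, adjusted p 0.0052). Otx2 fell from 8.52 to 0.0416 FPKM (log2 difference -3.14, limma adjusted p 1.60e-09) and Pax2 from 2.65 to 0.0208 FPKM (-1.80, adjusted p 2.01e-06). Lmx1b fell from 2.52 to 0.125 FPKM (log2 difference -1.65, limma adjusted p 2.08e-05), and Wnt1, listed at 0 in WT NSCs, and Tal2 were called lower as well. Gbx2 had means of 5.29 and 8.59 FPKM, a log2 difference of 0.57 (limma adjusted p 0.102).

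Between KO NSCs and KO day 9 cells all 8 tested members were called, where 59.6% of tested genes were. En1 rose from 1.503 to 7.08 FPKM (log2 difference 1.74, limma adjusted p 0.00049) and En2 from 3.93 to 9.90 FPKM (1.17, adjusted p 0.000222). Gbx2 fell from 19.3 to 3.42 FPKM (log2 difference -2.24, limma adjusted p 1.04e-06), and Otx2, Wnt1, Tal2, Pax2 and Lmx1b were lower too, with log2 differences from -4.54 to -1.59. The KO effect in NSCs differed from that at day 9 for 5 members, all with a lower KO effect in NSCs, where 5.84% of tested genes were called. The greatest of these differences was that of Gbx2, at -2.81 (SE 0.41, limma adjusted p 0.000178). En2 and Wnt1 had -1.93 and -2.67 (limma adjusted p-values 0.00097 and 0.00138), and Tal2 and Otx2 -1.38 and -1.40 (adjusted p-values 0.0303 and 0.0285). For Wnt1, Otx2 and Tal2 both genotypes were near 0 in NSCs, so their values restate the day 9 differences with the sign turned and add no support to them. The calls for Tal2 and Otx2 were each lost in 6 of the 12 fits without 1 library, with adjusted p-values up to 0.0985 and 0.0933. Pax5 and Pax8, fitted without the limit on low values, were higher at day 9 than in mESCs (limma adjusted p-values 0.00988 and 0.00274 in WT, 0.0369 and 0.000504 in KO cells). They were lower in NSCs than at day 9 (limma adjusted p-values 0.0137 and 0.000537 in WT, 0.0449 and 0.000279 in KO cells). For Pax5 these values rest on about 8, 2 and 2 reads in WT and 4, 2 and 2 reads in KO day 9 libraries. The share of all genes called in this fit was not counted.

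The order of the 8 groups differed between members. For Tal2 the order from the top was KO day 7, KO day 9, WT day 7 and WT day 9, and only the last pair of these neighbours overlapped. For Otx2 the order was the same, and again only WT day 7 and WT day 9 overlapped. For Wnt1, KO day 9 and KO day 7 overlapped at the top, followed by WT day 9 and WT day 7, which did not overlap with each other or with the KO groups. For En1, KO day 7 cells were followed by KO NSCs, which overlapped with them, and by WT NSCs. For En2, both NSC groups came first and overlapped, and WT day 9 cells came last. These orders include the day 7 groups on which the set was chosen and are given as a description.

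Genes of related pathways were drawn up in 6 lists and counted at day 9 in KO against WT cells, beside the same 2.58% called higher and 4.11% called lower of all tested genes. Of 13 tested genes of the isthmic FGF signal, 3 rose and none fell, with a median log2 difference of 0.46. The ligand gene Fgf15 rose from 10.2 to 32.4 FPKM (log2 difference 1.53, limma adjusted p 9.47e-05), and Cnpy1 and Etv4 rose by 0.87 and 0.84. Fgf8, the organizer ligand itself, had means of 5.38 FPKM in KO and 2.27 FPKM in WT cells and was not called (log2 difference 1.03, limma adjusted p 0.0801), except without WT day 9 replicate 2 (1.33, adjusted p 0.0381). At day 7, for which no test is given, Fgf8 was 10.4 to 14.7 FPKM in KO and 17.9 to 38.6 FPKM in WT cells, the opposite order. The day 7 median log2 difference was -0.27 for this list, -0.43 for the anterior hindbrain list and -1.11 for the midbrain dopaminergic list. It was 1.52 for the forebrain list, 0.20 for the midbrain list and 0.13 for the Wnt list. Of 14 tested Wnt ligands and canonical targets, 4 rose and none fell, with a median of 0.53. The ligand genes Wnt7b and Wnt3 rose by 2.44 and 2.23 on the log2 scale (limma adjusted p-values 2.84e-05 and 8.02e-07), and Axin2, a feedback inhibitor induced by Wnt signals, rose from 5.43 to 14.9 FPKM (1.29, adjusted p 0.000337).

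Of 9 tested midbrain genes, 2 rose and 1 fell, with a median log2 difference of 0.10. Pax3 and Pax7, dorsal factors also used elsewhere in the neural tube, rose from 3.02 to 35.1 FPKM and from 2.72 to 19.3 FPKM (log2 differences 3.45 and 2.74, limma adjusted p-values 1.43e-06 and 3.08e-05), of which the Pax7 call was lost in a fit of the day 9 libraries alone (0.0579). Gata2, a partner of Tal factors in GABAergic neurons, fell from 8.43 to 2.25 FPKM (log2 difference -1.54, limma adjusted p 3.08e-05). Of 13 tested anterior hindbrain genes, 4 rose and 1 fell, with a median of 0.57. Irx2, an Iroquois factor, rose by 2.00, Cyp26c1, an enzyme that degrades retinoic acid, by 1.78, and Hoxb1, the rhombomere 4 gene, fell by 1.47 (limma adjusted p-values 6.53e-05, 0.000219 and 0.00379). The Cyp26c1 call was lost in a fit of the day 9 libraries alone (adjusted p 0.0726).

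Of 7 tested forebrain genes, 5 rose and 1 fell, with a median log2 difference of 1.20. Wnt8b had means of 6.77 FPKM in KO and 0.0552 FPKM in WT cells (log2 difference 2.86, limma adjusted p 3.97e-10), Emx2 rose by 2.01 (adjusted p 7.29e-06) and Foxd1 fell by 2.34 (adjusted p 3.50e-05). Of 7 tested midbrain dopaminergic genes, 2 fell and none rose, with a median of -0.42. These were Foxa2 and Foxa1, ventral midline and endoderm factors, which fell by 2.85 and 1.91 on the log2 scale (limma adjusted p-values 7.10e-05 and 0.000218), of which the Foxa2 call was lost in a fit of the day 9 libraries alone (0.0584). Ddc, which makes dopamine, had a log2 difference of -0.45 (limma adjusted p 0.152) and was called without WT day 9 replicate 1 (-0.67, adjusted p 0.0206). Msx1 of this list, below the limit on low values and not tested, had means of 3.13 FPKM in KO and 0.303 FPKM in WT day 9 cells, without overlap. Wnt8b and Wnt3 reached the limit only with KO day 9 cells included and Foxa1 only with WT day 9 cells included, so their tests and the counts that hold them are descriptions. The list counts include genes also expressed outside the regions after which the lists are named.

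**Figure D4:**
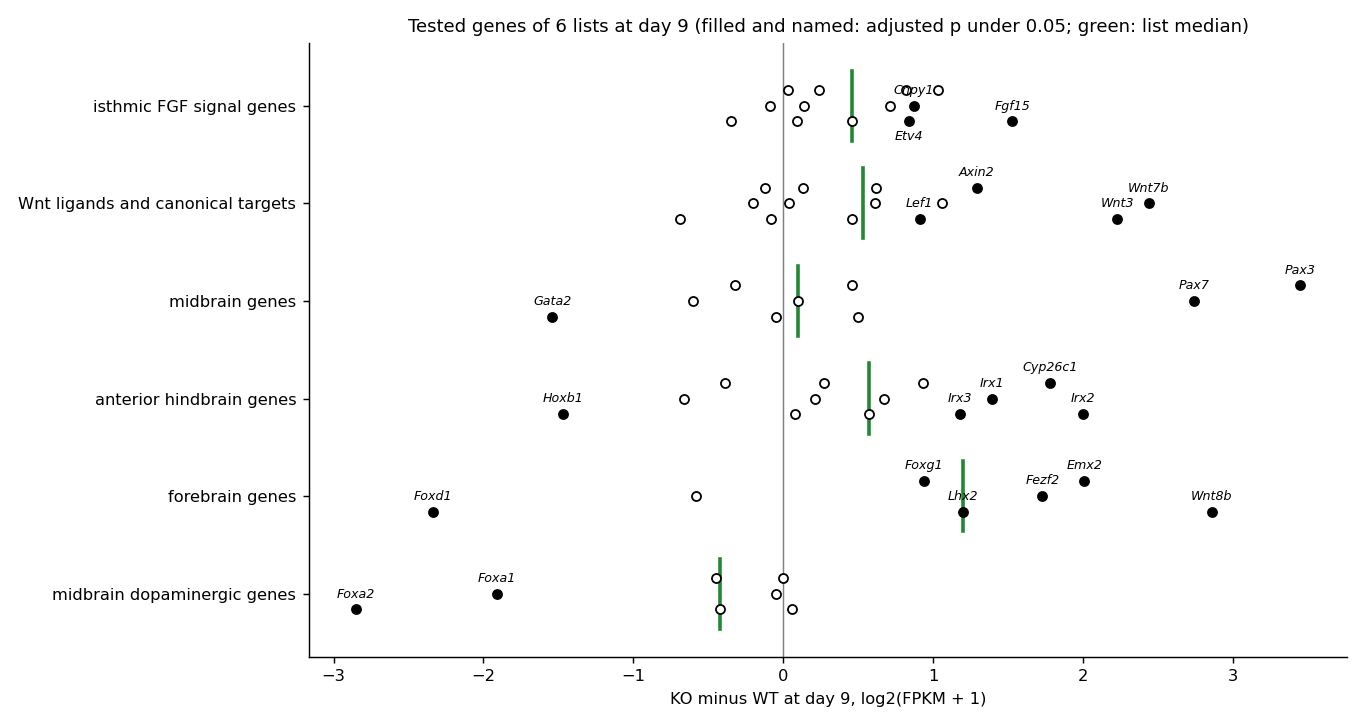
KO minus WT difference at day 9 on the log2(FPKM + 1) scale for every tested gene of 6 lists, with called genes filled and named and the list median in green. The medians run from -0.42 for midbrain dopaminergic genes to 1.20 for forebrain genes.

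In mESCs, no gene of the 6 lists was called between KO and WT cells, where 0.116% of all tested genes were called higher and 0.413% lower. In NSCs, where 2.54% were called higher and 3.48% lower, 3 of 13 tested anterior hindbrain genes fell in KO cells and none rose. Hoxa2 and Hoxb2, rhombomere genes, fell from 22.0 to 4.49 FPKM and from 10.8 to 2.23 FPKM (log2 differences -2.12 and -1.94, limma adjusted p-values 1.01e-05 and 7.02e-05), and Meis1 was the other. Of the midbrain list Meis2 fell by 1.52 and of the Wnt list Lgr5 by 0.57 (limma adjusted p-values 7.51e-05 and 0.0451). Emx2 of the forebrain list rose by 1.42 (limma adjusted p 0.000663). Aldh1a1 of the dopaminergic list rose from 1.94 to 17.4 FPKM (log2 difference 2.60, limma adjusted p 7.59e-05), although it reached the limit on low values only with KO NSCs included, so that its test is a description. Foxa1, listed at 0 in WT NSCs, had a mean of 1.43 FPKM in KO NSCs. None of the 13 genes of the isthmic FGF list was called in NSCs.

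The tested genes outside the set whose levels most resembled those of En1, Wnt1 and Tal2 were found by Pearson's r of log2 values over the 24 libraries. These points share groups of replicates, and r is a description with no test. For En1 they were Matk (0.86), Jph4 (0.84) and Lhx2 (0.78), for Wnt1 Wnt8b (0.94), Srcin1 (0.90) and Gm1568 (0.89), and for Tal2 Fezf2 (0.94), Rxrg (0.92) and Gdf10 (0.92). Over the 18 libraries without day 7, r was 0.78, 0.90 and 0.69 for Matk, Jph4 and Lhx2 with En1, 0.94, 0.89 and 0.90 for Wnt8b, Srcin1 and Gm1568 with Wnt1, and 0.92, 0.88 and 0.93 for Fezf2, Rxrg and Gdf10 with Tal2. Wnt8b had mean levels of 2.42 FPKM in KO day 7 and 6.77 FPKM in KO day 9 cells, and at most 0.181 FPKM in the other groups. Fezf2 had 9.70 FPKM in KO day 7 and 4.04 FPKM in KO day 9 cells, against 2.71 and 0.496 FPKM in the WT cells of those days. Within the set, the pair with the highest r was Tal2 and Otx2, at 0.91.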

How the data were processed

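Expression had been measured by the authors with stranded mRNA libraries read as 80-base single ends. They trimmed reads with Trim Galore 0.6.6, aligned them to mm9 with TopHat2 2.1.1, removed ribosomal and X-chromosome reads and ran Cuffdiff, and the deposited values are FPKM. Of 36 FPKM columns, 12 belong to other samples and were not used. Groups and replicate numbers come from the sample titles. The study describes the replicates of mESCs and their differentiation intermediates as biologically independent. Autosomal genes with a mean of at least 1 FPKM were fitted with limma 3.58.1 (R 4.3.3) on log2(FPKM + 1), with a mean for each of 8 groups and robust, trended eBayes, and p-values, all two-sided, were Benjamini-Hochberg adjusted over 12105 genes. The script was tested on simulated data. Same-numbered KO and WT libraries deviated together in mESCs (r 0.14 to 0.44) and NSCs (0.18 to 0.34), and not at day 9 (-0.11 to 0.03). The titles do not say that same-numbered libraries are pairs, and the main fit treats them as unpaired. Relative depth came from low genes, where 99.3% of 31362 values were whole multiples of a step within 5%. The members and lists were chosen with earlier results of these data known. Named genes are the members, the 3 list genes with the greatest day 9 difference, up to 2 called genes a list in NSCs, and the 3 genes most like En1, Wnt1 and Tal2. The sum over the B cell list is not reported here. Etv4, Meis1, Msx1, T, Meox1 and other marker genes were named after their values were seen. Alternatives were a pseudocount of 0.1, no filter, same-sum scaling, a replicate block, fits of the compared groups alone, leaving out each library, and, chosen after seeing the data, leaving out day 7.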

Additional observations from a re-analysis of the deposited data

Results flagged for a closer look

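For 5 members the KO effect in NSCs differed from that at day 9 by a test of the difference itself (limma, log2 scale): Gbx2 by -2.81 (adjusted p 0.000178), Wnt1 by -2.67 (0.00138), En2 by -1.93 (0.00097), Otx2 by -1.40 (0.0285) and Tal2 by -1.38 (0.0303). The KO effect of Gbx2 was 1.71 at day 9 and -1.10 in NSCs, where its call was lost under 4 of 12 alternatives, and that of En2 was 1.63 and -0.31, the NSC value not called. For Wnt1, Otx2 and Tal2 the NSC levels were at or below 0.222 FPKM in every library, so their values restate the day 9 differences with the sign turned. Wnt1 and Tal2 also passed the limit on low values only through day 7 and KO day 9 cells, so their tests are descriptions. Of all tested genes, 5.84% were called for this difference.

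For 2 members the KO effect at day 9 differed from that in mESCs: Wnt1 by 2.71 (limma adjusted p 0.00183) and Tal2 by 1.40 (adjusted p 0.0474). Wnt1 was listed at 0 in all 6 mESC libraries and Tal2 in 5 of them, so these values restate the day 9 differences almost whole. Both genes passed the limit on low values only through day 7 and KO day 9 cells, so their tests are descriptions. Of all tested genes, 2.68% were called for this difference.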

How the results depend on the processing

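Of the counts of members called, those for KO against WT in mESCs and for the 4 comparisons between stages stayed within 1.5 times under every alternative. With a pseudocount of 0.1 the count at day 9 fell from 5 to 3, that of the day 9 minus mESC difference from 2 to 1, that of the NSC minus day 9 difference from 5 to 3, and the day 7 median went from 1.17 to 1.61. Same-sum scaling gave 1 for the day 9 minus mESC difference, and a fit of NSC libraries alone gave 0 for KO against WT in NSCs. Leaving out 1 library gave counts of 1 to 2 for the day 9 minus mESC difference, 3 to 5 for the NSC minus day 9 difference and 0 to 1 in NSCs, and day 7 medians of 0.99 to 1.46. Signs turned for values near 0, which over the fits without 1 library ran from -0.28 to 0.07 for Gbx2, -0.12 to 0.39 for En1 and -0.32 to 0.21 for Pax2: in KO day 9 cells against KO mESCs, En2 was 0.05 and Gbx2 0.17 with same-sum scaling, and Gbx2 0.07 without KO mESC replicate 1 and 0.03 without KO day 9 replicate 2. At day 9, En1 was -0.12 without WT replicate 3 or KO replicate 1, and Pax2 0.09 without WT replicate 1 and 0.21 without KO replicate 1. The cause was not tested.

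With the replicate block the counts of members called were 5 at day 9, 0 in mESCs, 1 in NSCs and 3 for the day 9 minus mESC difference, where En2 was added (adjusted p 0.017). Without the day 7 libraries, Otx2 lost its call for the NSC minus day 9 difference (adjusted p 0.0503), En1 gained one in WT day 9 cells against WT mESCs (0.0159), and all other named members kept theirs. Without a filter, 7 midbrain and 4 dopaminergic genes were called at day 9, in either direction, in place of 3 and 2, and with the block 5 FGF genes in place of 3. In a fit of the day 9 libraries alone Pax7, Cyp26c1 and Foxa2 had adjusted p-values of 0.0579, 0.0726 and 0.0584. That fit called 5 FGF genes in place of 3 and 1 dopaminergic gene in place of 2. Members at a few reads, such as Wnt1 in WT day 7 cells, have folds that depend on the pseudocount.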
